A study of Homo sapiens with 12 samples.

Results

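The change of the NXP800 response between 6 h and 24 h was measured in MNNG/HOS, a human osteosarcoma cell line that is a chemically transformed derivative of HOS. Cells received DMSO, the solvent control, or 300 nM NXP800, a small molecule developed as an inhibitor of the heat shock factor 1 pathway, for 6 h or for 24 h. All 12 RNA-seq libraries were used, 3 for each of the 4 conditions, and they come from a single unmodified cell line with no allele or other agent that separates the groups. For each gene the log2 fold change of NXP800 against DMSO at 6 h was subtracted from that at 24 h, so each time kept its own DMSO control. Of 43236 gene symbols in the count files, 15979 had enough counts to be tested. Tests were edgeR's quasi-likelihood tests, and a gene counts as called where its p, adjusted over all tested genes by Benjamini-Hochberg, lies below 0.05. Levels are in CPM, counts divided by the scaled library size, and are listed in the order of replicates 1, 2 and 3. The levels of cell type markers use the unscaled library total instead.

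A cell exposed to a drug that disturbs protein synthesis or folding usually answers in waves. Immediate early genes and NF-kB targets are switched on by factors already present in the cell and are often switched off again by inhibitors that they themselves encode. The integrated stress response (ISR) acts through translation of the transcription factor ATF4, which induces amino acid and redox genes and a second set of factors. Genes of DNA replication and mitosis follow the position of cells in the cell cycle, so their RNA in a whole culture shifts as the share of dividing cells shifts. In such bulk RNA, fewer cells of a kind and less RNA per cell cannot be told apart.

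Library totals lay between 30810614 and 31947656 counts, so depth hardly differed. Reads outside annotated genes made up 6.66 to 8.14% of the 6 h libraries but 2.73 to 3.67% of those of 24 h, and time and library set cannot be told apart. Mesenchymal markers were abundant, with a summed level of 5092 to 8234 CPM, but COL1A2 did not exceed 0.387 CPM and the osteoblast genes ALPL, SP7, IBSP and BGLAP fell below the count filter. The 6 endothelial markers stayed under 1 CPM in all libraries, as did 4 of 8 epithelial and 6 of 8 blood markers, while the keratins KRT8 and KRT18 reached 838 and 844 CPM. Of the blood markers, CD14 reached 3.18 CPM and CD68 153 CPM. The summed blood markers were at 124 to 153 CPM in NXP800 and 67.0 to 87.5 CPM in DMSO at 24 h. Nearly all of this sum was CD68, at 62.7 to 153 CPM over all libraries, and 85.6% of the CD68 exon length is shared with other transcripts.

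The response was not constant. The difference of the responses was called for 4129 genes (25.8% of those tested), 1924 higher at 24 h (12% of those tested) and 2205 lower (13.8%). With the replicate number as a block, 6284 were called, 2945 higher and 3339 lower. Scaled by library size only, the split turned, with 2463 higher and 1670 lower. The difference exceeded 1 on the log2 scale in 1067 called genes (6.68%), 501 higher (3.14%) and 566 lower (3.54%). NXP800 against DMSO was called for 8435 genes (52.8%) at 6 h, 25% up and 27.8% down, and 8953 (56%) at 24 h, 27.5% up and 28.6% down, and of the 11452 called at either time 4075 (35.6%) had a called difference. For 4245 of the 5936 genes called at both times the difference was not called, with a median standard error of the difference over all genes of 0.156. Across genes the responses at both times correlated with Pearson's r of 0.646 and Spearman's rho of 0.629, a description in which genes are not independent and share libraries.

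Genes with a called difference were sorted by where NXP800 itself was called, and shares are of all tested genes. Leading genes of a class are named where the mean log2 CPM was 2 or more and the symbol does not start with LOC. Opposite genes were called at both times with different signs, 175 up then down (1.1%) and 163 down then up (1.02%). Transient genes were called at 6 h only, 473 up (2.96%) and 546 down (3.42%). Late genes were called at 24 h only, 706 up (4.42%) and 659 down (4.12%). Among genes called at both times in the same direction, the response at 24 h was weaker for 270 that were up (1.69%) and 261 that were down (1.63%). It was stronger for 215 that were up (1.35%) and 607 that were down (3.8%). The remaining 54 were called at neither time, 33 with a higher difference (0.207%) and 21 with a lower one (0.131%). A transient gene may still respond weakly at 24 h, and the 95% interval of the 24 h response stayed within 0.5 of 0 on the log2 scale for 363 of the 473 transient genes that were up and 410 of the 546 that were down. Likewise 429 of 706 late genes that were up and 493 of 659 that were down had such an interval at 6 h. With the block, the opposite genes numbered 333 and 381, the weaker 558 up and 496 down, and the stronger 447 up and 1036 down. Of the late genes described below, FDFT1, MVD, SUSD2 and MKI67 were then called down at 6 h too, CTSB up, and ATP2A3 and MALAT1 down at 6 h and up at 24 h. Of the transient genes, ULK1 was then still called up at 24 h, while INHBA was called down there and LINC01521 up. Without DMSO 6 h replicate 1 there were 137 stronger genes that were up, and without NXP800 6 h replicate 1 there were 165 weaker genes that were down.

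**Figure D1:**
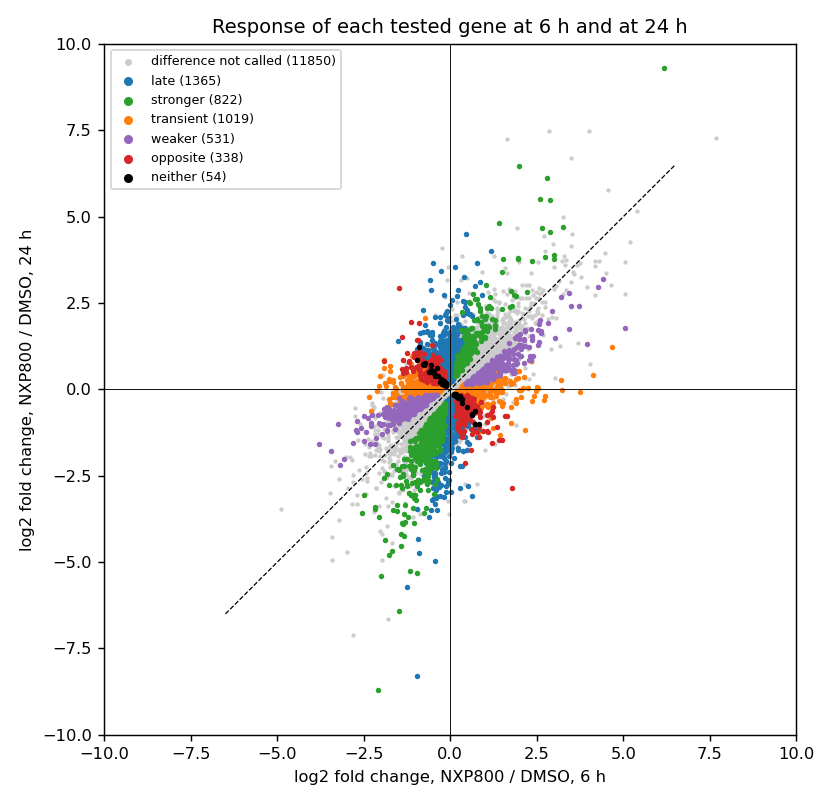
Log2 fold change of NXP800 against DMSO at 6 h (x axis) and at 24 h (y axis) for each of the 15979 tested genes, coloured by response class, with the dashed line marking equal responses. Opposite genes (175 up then down, 163 down then up) lie in the lower right and upper left quadrants, late genes along the vertical axis and transient genes along the horizontal axis.

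Genes that NXP800 raised at 6 h and lowered at 24 h were led by STC1, which encodes the secreted hormone stanniocalcin 1. STC1 measured 23.3, 21.9 and 26.0 CPM in DMSO and 56.7, 71.7 and 59.1 CPM in NXP800 at 6 h, against 15.1, 11.2 and 8.65 CPM in DMSO and 5.71, 4.26 and 2.68 CPM in NXP800 at 24 h. All treated libraries lay above the controls at 6 h and below them at 24 h. Its log2 fold change went from 1.40 to -1.47, a difference of -2.87 with a standard error of 0.28 (adjusted p = 3.75e-06). BIRC3, which encodes the NF-kB-induced apoptosis inhibitor cIAP2, had 10.7, 10.8 and 10.7 CPM in DMSO and 35.0, 34.7 and 31.3 CPM in NXP800 at 6 h. At 24 h the BIRC3 controls were at 1.47, 1.41 and 1.79 CPM and the treated libraries at 0.892, 1.29 and 0.574 CPM, so both groups lay far below the 6 h controls. The difference was -2.40 (standard error 0.25, adjusted p = 5.39e-06). TINAGL1, a matrix protein gene, ADAMTS6, a secreted metalloprotease gene, and FLG, the gene of the epidermal protein filaggrin, had differences of -2.56, -2.37 and -2.21. The treated and control libraries of FLG overlapped at 6 h. MITF, a transcription factor of lysosomal and pigment genes, went from 1.25 to -0.51, and TGFB2, a TGF-beta ligand, from 0.94 to -1.20. Exons of other genes overlap 34.3% of the TGFB2 exon length.

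The converse order was seen for C1QTNF1, a secreted relative of adiponectin. C1QTNF1 had 5.23, 7.44 and 5.56 CPM in DMSO and 2.58, 3.46 and 3.38 CPM in NXP800 at 6 h. At 24 h it had 4.58, 4.30 and 4.84 CPM in DMSO and 11.8, 11.9 and 13.3 CPM in NXP800. Its controls were thus similar at both times while the treated libraries moved from below to above them, a difference of 2.38 (standard error 0.21, adjusted p = 1.31e-06). DDX17, which encodes an RNA helicase that takes part in splicing, is far more abundant. It measured 198, 208 and 190 CPM in DMSO and 94.2, 90.9 and 96.3 CPM in NXP800 at 6 h, then 181, 188 and 167 CPM in DMSO and 234, 293 and 245 CPM in NXP800 at 24 h (difference 1.61, standard error 0.11, adjusted p = 2.39e-07). NPTXR, a neuronal pentraxin receptor gene, ZDHHC14, a palmitoyltransferase gene, and PARM1 had differences of 1.98, 1.84 and 1.42. EIF2AK2, which encodes the double-stranded RNA-activated eIF2alpha kinase PKR, had 72.8, 66.0 and 72.9 CPM in DMSO and 49.4, 55.0 and 58.8 CPM in NXP800 at 6 h. At 24 h its controls were at 61.5, 58.8 and 62.1 CPM and its treated libraries at 82.4, 83.7 and 79.4 CPM, with a difference of 0.80 (standard error 0.10, adjusted p = 2.5e-05). Among the other eIF2alpha kinases, EIF2AK3 (PERK) was late, with a difference of 0.45 (standard error 0.12, adjusted p = 0.0145). The differences of EIF2AK1 (HRI) and EIF2AK4 (GCN2) were not called.

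**Figure D2:**
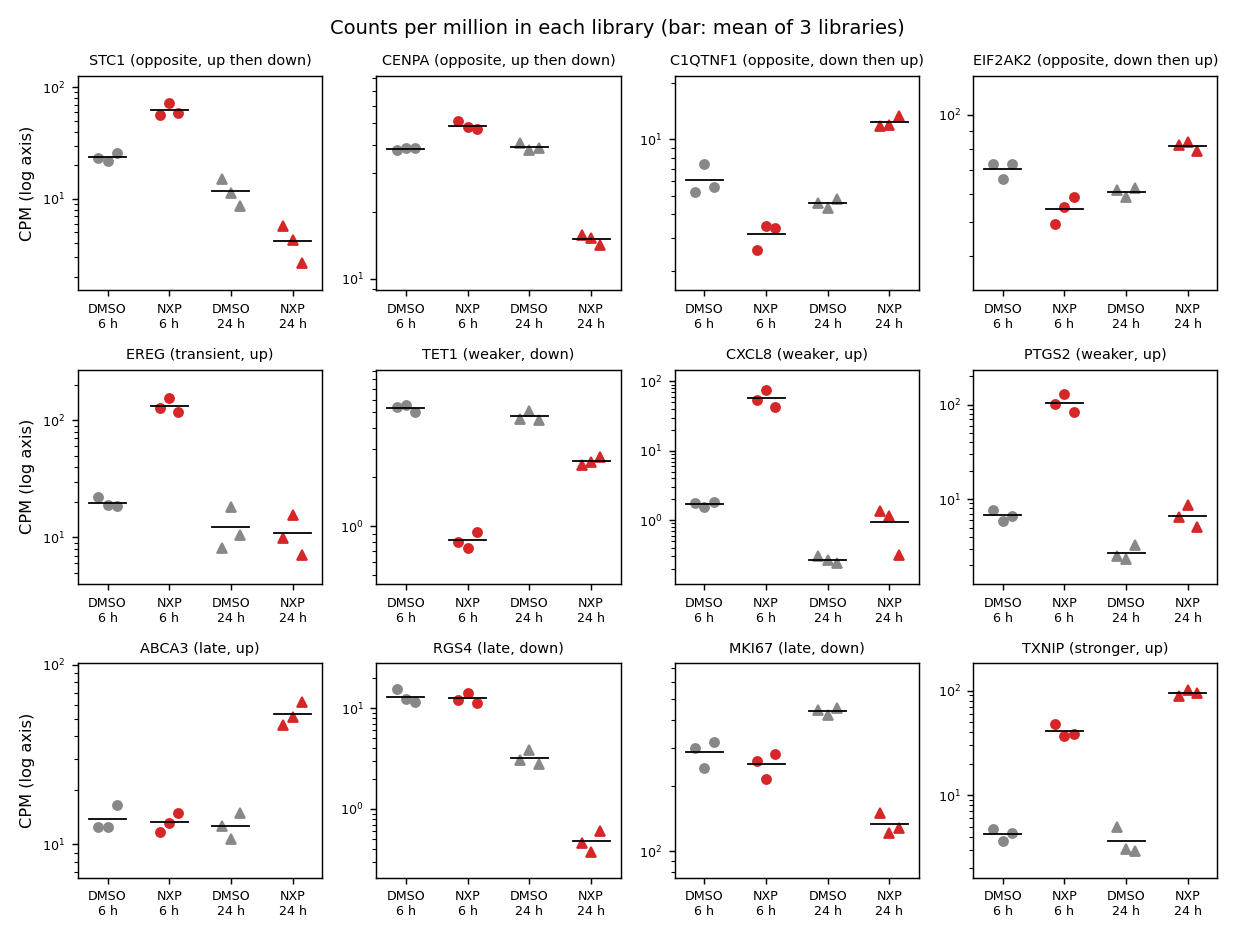
CPM on a log axis in each of the 12 libraries for 12 genes, with grey points for DMSO, red points for NXP800, circles for 6 h, triangles for 24 h and a bar at the mean of 3 libraries. STC1 and CENPA cross from above to below their controls, C1QTNF1 and EIF2AK2 cross the other way, and the treated and control libraries of ABCA3, RGS4 and MKI67 overlap at 6 h and lie apart at 24 h.

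Transient increases included several growth factor genes. EREG, the gene of the EGF receptor ligand epiregulin, had 22.1, 18.8 and 18.7 CPM in DMSO and 128, 154 and 118 CPM in NXP800 at 6 h. At 24 h its controls measured 8.20, 18.2 and 10.6 CPM and its treated libraries 9.87, 15.5 and 7.02 CPM, and the groups overlapped. The difference was -2.93 with a standard error of 0.35 (adjusted p = 1.98e-05). FST, which encodes the activin antagonist follistatin, had a difference of -3.01, and INHBA, which encodes the activin A subunit, went from 1.88 to -0.28. NRG1, the gene of the ERBB ligand neuregulin 1, went from 2.10 to 0.04, and TAGLN3, a calponin family gene, from 2.50 to 0.06. ULK1, the gene of the kinase that starts autophagy, went from 1.73 to 0.23 (adjusted p = 3.7e-06). As classes, transient increases and decreases were of like size, with median differences of -0.58 and 0.62, but the leading decreases were smaller than the leading increases. The largest of them was that of the zinc finger gene ZSCAN31, from -1.67 to -0.12, where the mean log2 CPM was 2 or more and LOC symbols were left out. DFFB, which encodes a DNase of apoptosis, MYPOP, the noncoding RNA LINC01521 and the transcription factor gene SOX1 followed, with differences from 1.33 to 1.44. CCND1, which encodes cyclin D1 of the G1 phase, had 1068, 921 and 1005 CPM in DMSO and 723, 659 and 734 CPM in NXP800 at 6 h. At 24 h the groups overlapped, with 1067, 1021 and 893 CPM in NXP800 and 1011, 941 and 919 CPM in DMSO, and the difference was 0.56 (standard error 0.11, adjusted p = 0.00215). BCL2, the founding anti-apoptotic gene of its family, went from -0.89 to 0.14, while BMF, a pro-apoptotic member, went from 0.04 to 1.31.

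Late increases were led by ABCA3, a lipid transporter gene. ABCA3 had 12.6, 12.5 and 16.5 CPM in DMSO and 11.7, 13.2 and 14.9 CPM in NXP800 at 6 h. Its treated libraries reached 46.4, 51.4 and 62.2 CPM at 24 h against 12.6, 10.7 and 14.9 CPM in DMSO, a difference of 2.13 (standard error 0.20, adjusted p = 2.74e-06). ATP2A3, the gene of an endoplasmic reticulum calcium pump, the hair keratin gene KRT81 and AHNAK2 had differences of 1.86, 1.72 and 1.63. The noncoding RNA MALAT1 had a difference of 1.81 (adjusted p = 0.0112), and 83.7% of its annotated exon length is shared with other transcripts. Late decreases were led by RGS4, a brake on G protein signalling. At 6 h RGS4 had 15.3, 12.2 and 11.4 CPM in DMSO and 12.1, 14.2 and 11.1 CPM in NXP800, and at 24 h 3.04, 3.83 and 2.78 CPM in DMSO and 0.462, 0.376 and 0.606 CPM in NXP800 (difference -2.67, standard error 0.28, adjusted p = 5.64e-06). Its controls were also lower at 24 h than at 6 h. IL7R, the interleukin 7 receptor gene, had controls at a like level at both times, 66.9 to 80.6 CPM at 6 h and 67.3 to 81.6 CPM at 24 h, and its treated libraries were at 66.5 to 90.0 CPM and then at 17.9 to 19.5 CPM. SCG2, a secretory granule gene, SUSD2 and SLIT3, a guidance ligand gene, had differences of -2.60, -2.48 and -1.94.

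Some strong 6 h responses shrank without being lost. CXCL8, the neutrophil chemokine gene, measured 1.74, 1.54 and 1.85 CPM in DMSO and 53.5, 74.0 and 43.0 CPM in NXP800 at 6 h. At 24 h it measured 0.301, 0.269 and 0.240 CPM in DMSO (9, 8 and 7 counts) and 1.35, 1.16 and 0.319 CPM in NXP800. The log2 fold change went from 5.05 to 1.79 (difference -3.26, standard error 0.73, adjusted p = 0.00375), with a 95% interval of -4.80 to -1.72. PTGS2, which encodes cyclooxygenase 2, had 7.73, 5.93 and 6.56 CPM in DMSO and 103, 128 and 83.4 CPM in NXP800 at 6 h, then 2.48, 2.32 and 3.30 CPM in DMSO and 6.47, 8.59 and 5.04 CPM in NXP800. The treated libraries of PTGS2 thus fell by 24 h to near the level of the 6 h controls, with a difference of -2.64 (standard error 0.29, adjusted p = 9.65e-06). IL11 and LIF, cytokine genes of the IL-6 family, had differences of -1.54 and -1.48. Among decreases, TET1, which encodes a 5-methylcytosine dioxygenase, had 5.39, 5.52 and 5.01 CPM in DMSO and 0.798, 0.734 and 0.921 CPM in NXP800 at 6 h, and 4.55, 5.11 and 4.50 CPM against 2.38, 2.48 and 2.65 CPM at 24 h. Part of the TET1 decrease was thus gone at 24 h (difference 1.78, standard error 0.21, adjusted p = 1.78e-05). KBTBD7, SYNM, an intermediate filament gene with 27.8% of its exon length shared, and MARVELD1 had differences of 1.34, 1.33 and 1.24.

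Responses that grew included TXNIP, a glucose-sensing inhibitor of thioredoxin and glucose uptake. TXNIP had 4.75, 3.63 and 4.37 CPM in DMSO and 47.7, 36.6 and 38.9 CPM in NXP800 at 6 h, then 4.98, 3.09 and 2.92 CPM in DMSO and 88.0, 102 and 94.3 CPM in NXP800 at 24 h. With its controls at the same low level, the treated libraries rose further, a difference of 1.42 (standard error 0.22, adjusted p = 0.000255). PTPRN, of neuroendocrine granules, KIF1A, a transport kinesin gene, and CLGN, a chaperone gene of the endoplasmic reticulum, had differences of 2.11, 1.92 and 1.91. SQSTM1, the gene of the autophagy receptor p62, went from 0.61 to 1.35, with 22.4% of its exon length shared with other genes. On the decreasing side E2F8, a repressor of the E2F family, had 13.4, 15.3 and 15.2 CPM in DMSO and 11.5, 10.3 and 10.1 CPM in NXP800 at 6 h, and 10.6, 11.3 and 8.86 CPM against 1.42, 1.38 and 0.989 CPM at 24 h. All treated libraries were below the controls at both times, by far more at 24 h (difference -2.56, standard error 0.19, adjusted p = 3.52e-07). EFEMP1, a matrix glycoprotein gene, and COL2A1, a collagen gene of cartilage, had differences of -2.30 and -2.25.

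By gene list, the most one-sided difference was that of mitosis. Of 36 mitotic kinase, checkpoint and kinetochore genes, all tested, 35 were called lower in the difference and 0 higher, against 13.8% called lower over all genes. The median response of the list went from -0.16 to -1.17 on the log2 scale, beside medians over all genes of -0.046 and -0.0033. By class, 15 were late, 16 stronger and 4 opposite (10, 20 and 5 with the block), and CDC25B was the member with no call (difference -0.21, adjusted p = 0.17). At 6 h 17 members were called down and 4 up, and at 24 h all 36 were called down, against 28.6% of all genes. No member had a higher difference at an unadjusted p below 0.05 either, and DESeq2's Wald test called 0 higher. CENPA, which encodes the histone H3 variant of centromeres, had 38.1, 38.7 and 38.8 CPM in DMSO and 51.2, 48.0 and 47.0 CPM in NXP800 at 6 h. At 24 h its controls were at 40.9, 38.1 and 38.7 CPM and the treated libraries at 15.7, 15.3 and 14.2 CPM. The CENPA controls barely moved while the treated libraries crossed from above to below, a difference of -1.72 (standard error 0.09, adjusted p = 3.33e-08). MKI67, which encodes the proliferation antigen Ki-67, had 300.03, 241 and 319.7 CPM in DMSO and 261, 214 and 280.1 CPM in NXP800 at 6 h. The 6 h groups overlapped, but each treated library lay below the control of its number, and the 6 h response of -0.19 was called with the block (adjusted p = 0.00461) and not without it (adjusted p = 0.159). At 24 h the MKI67 controls reached 449, 424 and 456 CPM and the treated libraries fell to 151, 121 and 128 CPM (difference -1.54, standard error 0.16, adjusted p = 4.74e-06). KIF20A, a kinesin gene of the central spindle, went from -0.73 to -2.30, and CDK1, the mitotic kinase gene, from -0.25 to -1.44.

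The replication and recombination lists also held lower calls. Of 36 origin licensing and replication fork genes, 23 were called lower in the difference (13.8% over all genes) and 0 higher, 18 stronger and 5 late, with a median of -0.47 at 6 h and -0.90 at 24 h. TYMS, which encodes thymidylate synthase, had 640.3, 673 and 625 CPM in DMSO and 443, 446 and 430.4 CPM in NXP800 at 6 h, then 676, 632 and 626 CPM in DMSO and 189, 163 and 176 CPM in NXP800 at 24 h. Every treated TYMS library was lower at both times, with a difference of -1.32 (standard error 0.09, adjusted p = 2.4e-07), and 47.9% of its exon length lies within exons of other genes. TK1, which encodes thymidine kinase, and CDC45, of the replicative helicase, had differences of -1.66 and -1.29. Of 24 homologous recombination and Fanconi genes, 14 were called lower and 0 higher, led by RAD54L (-1.32) and EXO1 (-1.11). In both lists edgeR's unadjusted p below 0.05 and DESeq2's Wald test likewise gave 0 higher.

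Promoter sequence from RefSeq on GRCh38.p14, from 250 bases before to 50 after the start, was at hand for 12235 tested genes. The cell cycle homology region, searched as TTTGAA on both strands, is the element through which the DREAM and MuvB complexes act on late cell cycle genes, and any match is a description and not a site. It lay in 9.60% of the promoters of all tested genes. In genes that were late and down it lay in 20.3% (107 of 527), in those up then down in 20.5% (27 of 132) and in those stronger and down in 83 of 487. Shares were 6.74% in late genes that were up, 4.13% in weaker genes that were down and 4.14% in stronger genes that were up. The other classes lay nearer to the share of all genes, with 12.3% in genes that went down then up, 11.1% and 7.51% in transient genes that were up and down, and 9.46% in weaker genes that were up. In the mitotic list it lay in 18 of 29 promoters. That list holds late cell cycle genes, so this share was partly set by the choice of genes. Of its 36 members, 35 were late and down, stronger and down, or up then down. The shares of this list, here and below, are thus not separate from those of these classes. The E2F letters TTTCCCGC lay in 2.62% of all, in 5.30% of genes up then down (7 of 132) and in 5.13% of stronger genes that were down. Another E2F form, TTTGGCGC, lay in 1.06% of all but in 0 of 132 genes up then down. It lay in 2.28% of late and 2.05% of stronger genes that were down, and in 1.90% of transient genes that were up. The CCAAT box, searched as CCAAT, lay in 35.8% of all and in 48.3% of stronger genes that were down. It also lay in 41.7% of transient genes that were up, in 40.6% of late genes that were down and in 21 of 29 promoters of the mitotic list. The CCAAT box was also common in lists that did not fall, with 20 of 24 promoters of ER chaperone genes. The 100 bases before the start of MKI67 (chr10:128126424-128126523, minus strand), CENPA (chr2:26785956-26786055, plus strand) and TYMS (chr18:657553-657652, plus strand) are printed because they hold such letters and belong to genes described above. Capitals mark TTTGAA in MKI67 and CENPA, and in TYMS the E2F letters, which read on the other strand.
MKI67: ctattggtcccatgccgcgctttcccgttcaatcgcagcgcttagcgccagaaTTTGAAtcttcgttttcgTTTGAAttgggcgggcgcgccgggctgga
CENPA: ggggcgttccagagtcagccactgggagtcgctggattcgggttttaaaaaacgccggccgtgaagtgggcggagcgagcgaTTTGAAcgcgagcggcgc
TYMS: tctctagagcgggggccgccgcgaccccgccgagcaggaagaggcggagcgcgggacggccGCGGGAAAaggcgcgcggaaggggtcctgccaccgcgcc

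**Figure D3:**
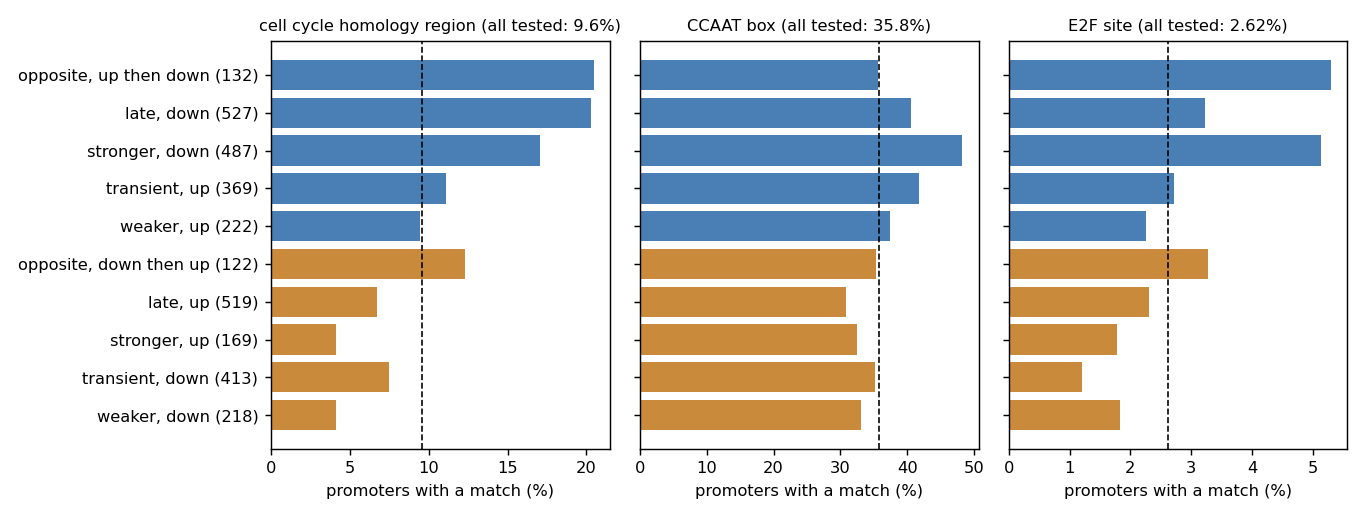
Percent of promoters with a match to the cell cycle homology region, the CCAAT box and the E2F site in each response class, with the number of promoters in brackets, blue bars for classes whose difference is lower, orange bars for classes whose difference is higher, and a dashed line at the share of all tested genes. The first motif lies in 20.5% of genes that went up then down and in 20.3% of late genes that were down, against 9.60% of all. The E2F site shown is TTTCCCGC.

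Inflammatory genes had an early rise that was mostly gone at 24 h, with 16 members called up at 6 h (25% of all genes) and 6 at 24 h (27.5%). Of 29 cytokine and NF-kB target genes 19 were tested, and 12 of these were called lower in the difference and 2 higher (13.8% and 12% over all genes). The median was 1.65 at 6 h and 0.038 at 24 h. Among the 12, 6 were transient, 4 weaker and 2 opposite. CSF2, which encodes the growth factor GM-CSF, went from 2.49 to -0.05 at levels under 12 CPM. NFKBIA, which encodes the NF-kB inhibitor IkBalpha and was chosen after its values were seen, went from 0.55 to -0.29 (difference -0.84, adjusted p = 0.00017). The members called higher were TNFAIP2 (-0.72 to -0.09) and CSF1 (-1.13 to -0.34). The NF-kB letters, GGGA and TTTCC around 1 free base on either strand, lay in 0.572% of all tested promoters and in 7 of 16 of this list. The list holds NF-kB targets, so this share was partly set by the choice of genes. By class, the letters lay in 3 of 369 transient genes that were up, 1 of 222 weaker genes that were up and 3 of 132 genes up then down. They stand in capitals, on the other strand, in the 100 bases before the NFKBIA start (chr14:35404750-35404849, minus strand), shown as the example from this list.
NFKBIA: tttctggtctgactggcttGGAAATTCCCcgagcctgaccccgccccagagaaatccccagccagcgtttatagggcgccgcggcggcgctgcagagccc

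Of 30 tested immediate early and AP-1 genes, 13 were called lower in the difference and 1 higher (13.8% and 12% over all genes). The median went from 0.81 to 0.26. In this list 20 members were called up at 6 h (25% of all genes) and 13 at 24 h (27.5%). Of the 13 lower calls, 7 were weaker but still up. DUSP1, a MAP kinase phosphatase gene, went from 2.31 to 0.97 (adjusted p = 0.0016). JUN, which encodes the AP-1 subunit c-Jun, had 1.19 at 6 h and 0.88 at 24 h, and its difference of -0.32 was not called (adjusted p = 0.34). The list of CDK inhibitors and p53 targets held 15 lower and 4 higher calls among 29 tested members, beside 13.8% and 12% over all genes. Its higher calls were thus near the share of all genes. SESN2, which encodes the stress sensor sestrin 2, fell back from 4.40 to 3.19, and CCNG2, an inhibitory cyclin gene, went from 0.59 to -0.53. CDKN2C, the gene of the CDK4 and CDK6 inhibitor p18, was stronger and down, from -2.18 to -3.46, with 20.4% of its exon length shared. ZMAT3, a p53 target, went from -0.51 to 0.29. Without DMSO 6 h replicate 1 or 2, NXP800 6 h replicate 2, or DMSO 24 h replicate 1 or 2, the higher calls of this list numbered 2.

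**Figure D4:**
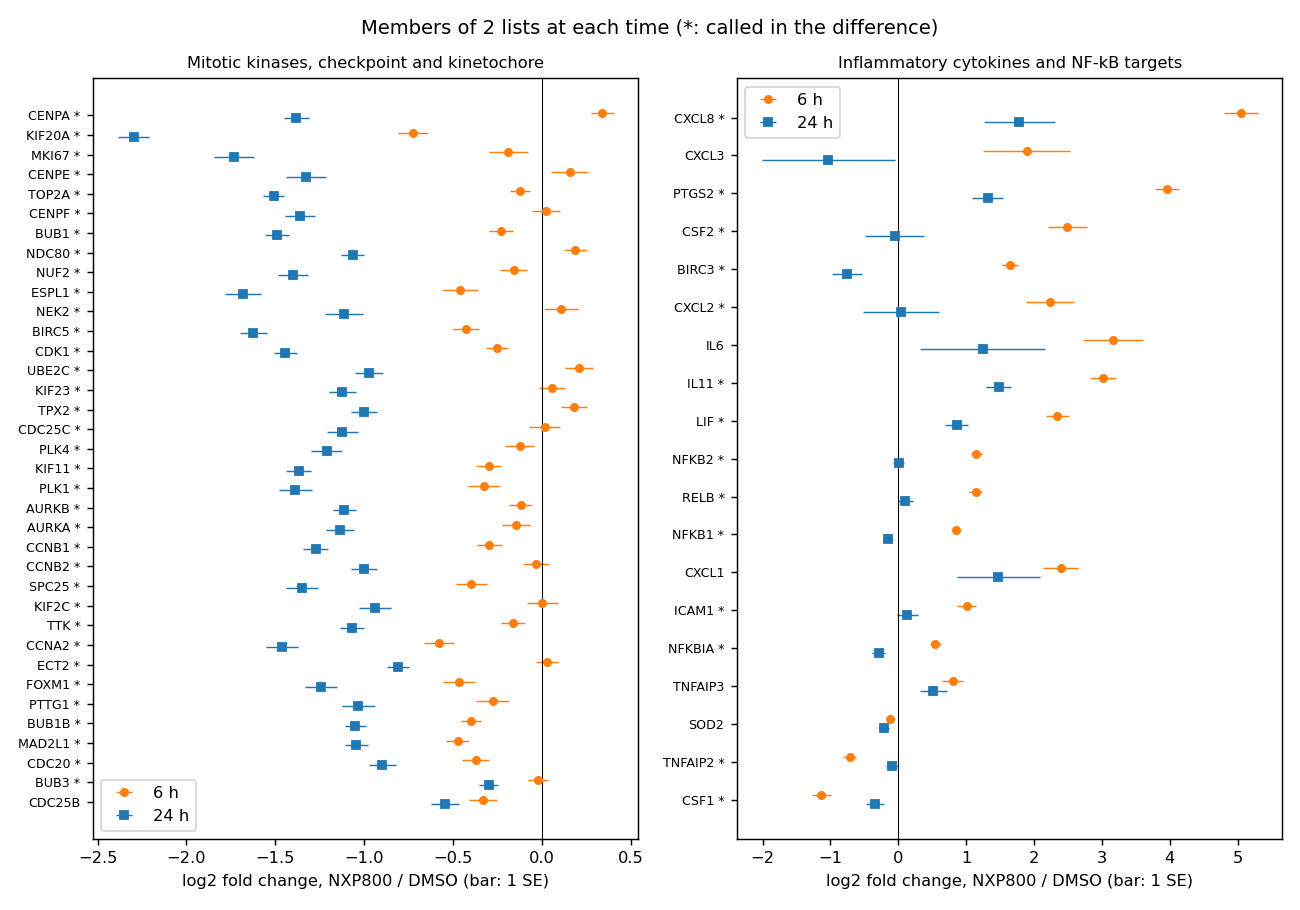
Log2 fold change of NXP800 against DMSO with 1 standard error for the tested members of the mitotic list (left) and the inflammatory list (right), in orange for 6 h and blue for 24 h, with an asterisk at genes called in the difference. All 36 mitotic genes lie below 0 at 24 h, and 12 of 19 inflammatory genes were called lower at 24 h than at 6 h.

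ISR genes kept most of their response. Of 36 ISR and ATF4 target genes 34 were tested, 31 were called up at each time (25% of all genes at 6 h and 27.5% at 24 h), and the medians were 1.81 at 6 h and 1.72 at 24 h. The difference was called lower in 9, 26.5% of the list beside 13.8% of all genes, and all 9 were weaker and still up at 24 h. It was called higher in 0 (1 at an unadjusted p below 0.05, 0 by DESeq2's Wald test), beside 12% of all genes. With the replicate block the lower calls numbered 16, and 1 member was called higher, as stronger and up. Without DMSO 24 h replicate 1 there were 5 higher calls. CTH, which encodes the transsulfuration enzyme that makes cysteine, had 6.08, 5.36 and 5.41 CPM in DMSO and 119, 102 and 103 CPM in NXP800 at 6 h, then 8.33, 5.55 and 4.46 CPM in DMSO and 49.3, 49.0 and 44.2 CPM in NXP800 at 24 h. All treated CTH libraries stayed far above the controls, at a lower level at 24 h (difference -1.31, standard error 0.21, adjusted p = 0.000255). Of the sensors of the endoplasmic reticulum, ERN1, which encodes IRE1alpha, went from 2.61 to 1.63 (adjusted p = 0.000117). ATF6 (difference -0.22), XBP1 (-0.21) and HSPA5 (0.40) were not called. With the replicate block ATF6 (adjusted p = 0.0286) and HSPA5 (adjusted p = 0.035) were called. HSPA5 was also called with library size only, without DMSO 24 h replicate 3 and with all genes kept whatever their counts, and ATF6 without NXP800 6 h replicate 3. In the list of 28 endoplasmic reticulum chaperones, disulfide isomerases and degradation genes, 5 were called higher and 1 lower (12% and 13.8% over all genes). The median went from -0.076 to 0.099. Higher calls numbered 13 with the block, and 12 with library size only or without DMSO 24 h replicate 3. SEC61A1, which encodes the pore of the translocon, went from -0.51 to 0.17, and it was the opposite member of this list.

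Of 21 tested heat shock genes, 18 were called down at 6 h and 17 at 24 h, against 27.8% and 28.6% of all genes. In the difference 4 were called higher and 2 lower, 28.6% of the list beside 25.8% of all genes, and the median response was -0.54 at 6 h and -0.65 at 24 h. With the block these counts were 7 and 4, and without 1 library the lower calls numbered 1 in 11 of 12 settings. HSPA8, which encodes the constitutive chaperone HSC70, had 4779, 5065 and 4839.7 CPM in DMSO and 848, 936 and 919 CPM in NXP800 at 6 h, then 4978, 4819 and 5752 CPM in DMSO and 2572, 1709 and 2374 CPM in NXP800 at 24 h. Every treated HSPA8 library was below its controls, by less at 24 h, with a difference of 1.22 (standard error 0.17, adjusted p = 7.9e-05). DNAJA1, a co-chaperone of HSP70, had a difference of 0.56. HSP90AA1, the gene of inducible HSP90, was stronger and down, from -0.73 to -1.29 (adjusted p = 0.014). The difference of HSF1 was not called. The heat shock element, searched on both strands as GAA, TTC and GAA with 2 free bases between neighbours, lay in 0.311% of all tested promoters and in 4 of 20 of this list. The list holds HSF1 targets, so this share was partly set by the choice of genes. The element lay in 2 of 218 weaker and 1 of 487 stronger genes that were down. It stands in capitals in the 100 bases before the HSPA8 start (chr11:123062137-123062236, minus strand), shown because HSPA8 had the largest difference of the list.
HSPA8: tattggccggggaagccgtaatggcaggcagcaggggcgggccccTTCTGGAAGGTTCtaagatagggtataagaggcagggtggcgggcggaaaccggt

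Matrix and TGF-beta lists held more lower than higher calls. Of 33 collagen and bone matrix genes 23 were tested, with 11 called lower in the difference and 1 higher (13.8% and 12% over all genes), and medians of -0.32 at 6 h and -0.82 at 24 h. With the block 3 were called higher. BGN, which encodes the proteoglycan biglycan, had 405, 404 and 359 CPM in DMSO and 303, 303 and 272 CPM in NXP800 at 6 h, then 352, 458 and 383 CPM in DMSO and 107, 76.9 and 89.9 CPM in NXP800 at 24 h. The treated BGN libraries were below the controls at both times, and the decrease grew by 1.71 (standard error 0.16, adjusted p = 1.95e-06). COL5A2 and THBS1, which encodes thrombospondin 1, had differences of -1.87 and -1.51. COL5A1, whose chain assembles with that of COL5A2, went the other way, from -0.71 to 0.33 (difference 1.04, standard error 0.16, adjusted p = 0.000258), with 275, 355 and 261 CPM in NXP800 above 243, 252 and 214 CPM in DMSO at 24 h. In the list of TGF-beta, BMP and YAP targets, 12 of 31 tested genes were called lower and 1 higher, with medians of 0.16 and -0.40. Under the block 3 were called higher, and without 1 library the higher calls ranged from 0 to 2.

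The sterol, splicing and ribosomal protein lists had median differences of -0.57, -0.22 and 0.16. Of 30 tested cholesterol and fatty acid synthesis genes, 15 were called lower (13.8% over all genes) and 2 higher, with medians of -0.45 and -0.95. FDFT1, which encodes squalene synthase, went from -0.33 to -1.26, and MVD, of the mevalonate pathway, from -0.32 to -1.16. In DMSO at 24 h, replicate 1 of MVD (46.6 CPM) lay below replicates 2 and 3 (64.8 and 70.0 CPM). The lower calls of this list numbered 23 without DMSO 24 h replicate 1, 9 without DMSO 24 h replicate 2, 9 without NXP800 6 h replicate 2 and 25 with the block. Higher calls fell to 1 in 10 of the 12 settings that left out 1 library. Of 30 SR and hnRNP splicing genes, 9 were called lower (16 with the block) and 2 higher, led by TRA2A, a splicing activator gene that went from 0.61 to -0.59. Of 48 cytosolic ribosomal protein genes, 10 were called higher, 20.8% beside 12% of all genes, and 0 lower (0 also at an unadjusted p below 0.05 and by DESeq2's Wald test), with medians of -0.078 and 0.082. RPL37 (difference 0.49), RPS12 (0.45) and RPS18 (0.45) were the largest. This count was 20 with library size only, 17 with the block and as low as 3, without NXP800 6 h replicate 3. Many ribosomal protein genes have processed pseudogenes with which reads can be shared.

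**Figure D5:**
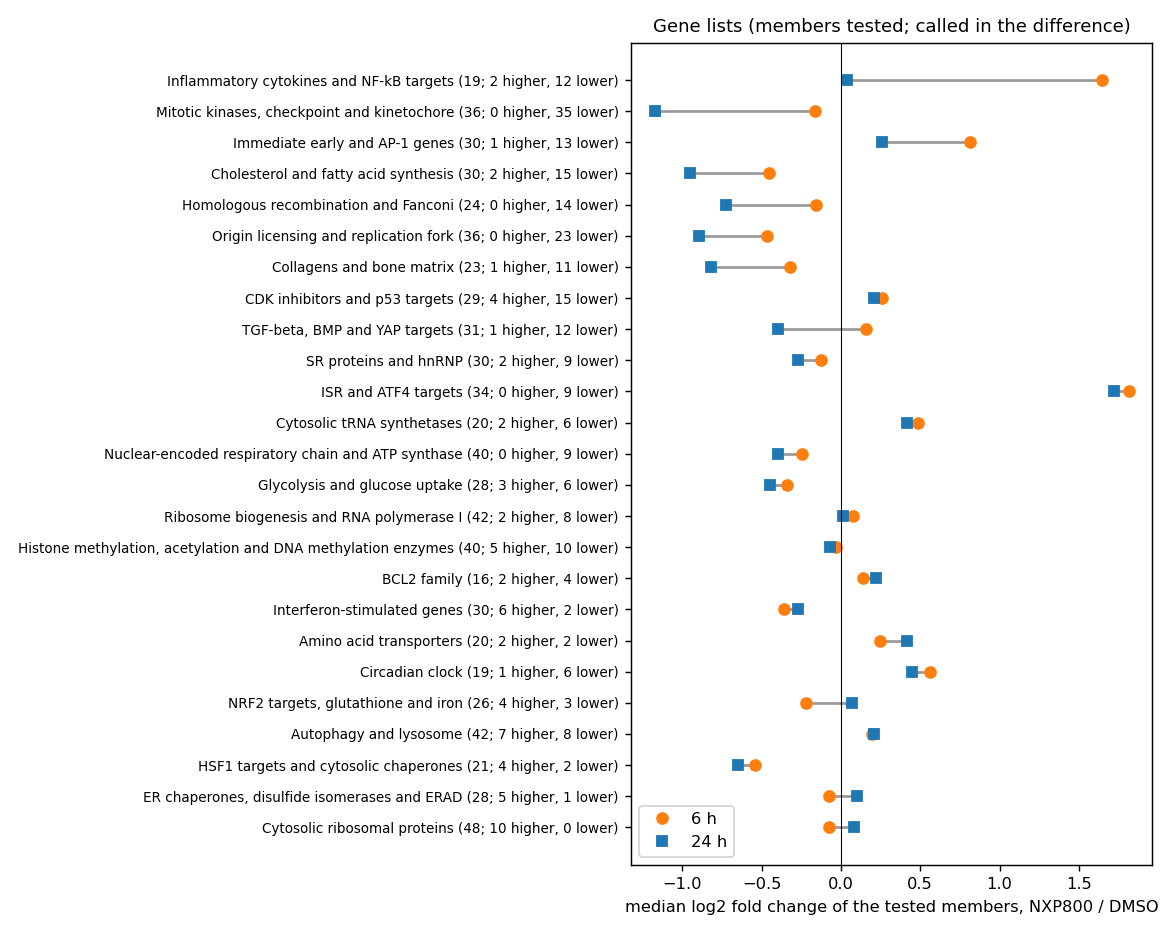
Median log2 fold change of NXP800 against DMSO at 6 h (orange circles) and 24 h (blue squares) over the tested members of the 25 gene lists, with the number tested and the numbers called higher and lower in the difference in brackets. The inflammatory and mitotic lists at the top have the widest gaps, from 1.65 to 0.038 and from -0.16 to -1.17, while the ISR list stays at 1.81 and 1.72.

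The other lists held calls in both directions, except that of the respiratory chain, whose calls were all lower. Over all genes 12% were called higher and 13.8% lower. Autophagy and lysosome genes had 7 higher and 8 lower calls of 42, with RRAGD, a GTPase gene of lysosomal mTORC1 signalling, late and up (-0.13 to 1.15) and CTSB, a lysosomal protease gene, likewise (0.15 to 0.98). Histone and DNA methylation enzymes had 5 higher and 10 lower calls of 40, and the lower count was 6 without NXP800 6 h replicate 2. DNMT1, which encodes the maintenance methyltransferase, was late and down (-0.01 to -0.67). Interferon-stimulated genes had 6 higher and 2 lower calls of 30, circadian genes 1 and 6 of 19, and BCL2 family genes 2 and 4 of 16. Respiratory chain genes had 0 higher and 9 lower of 40 (17 lower with the block, 4 without DMSO 6 h replicate 1), and 0 were higher at an unadjusted p below 0.05 or by DESeq2's Wald test. The remaining lists, namely tRNA synthetases (2 higher, 6 lower of 20), amino acid transporters (2 and 2 of 20), glycolysis (3 and 6 of 28), NRF2 targets (4 and 3 of 26) and ribosome biogenesis (2 and 8 of 42), had shares of calls between 20 and 40%, beside 25.8% over all genes. Several of these counts moved when 1 library was left out. Higher calls ranged from 1 to 2 for tRNA synthetases, 0 to 3 for amino acid transporters, 2 to 5 for NRF2 targets, 1 to 2 for ribosome biogenesis and 0 to 2 for circadian genes. Lower calls ranged from 1 to 8 for NRF2 targets, 3 to 8 for glycolysis and 1 to 3 for interferon-stimulated genes.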

How the data were processed

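Poly(A) RNA of MNNG/HOS cells was sequenced as strand-specific paired ends in 12 libraries, 3 per condition, for DMSO and 300 nM NXP800 at 6 h and 24 h. Per the labels and the study's methods, the authors trimmed reads with fastp 0.20.1, aligned them with STAR 2.7.5a to the human genome and deposited raw counts per RefSeq gene made with HTSeq 0.12.4. The counting mode and strand setting are not given in the sources used here, so reads of overlapping or near-identical genes are uncertain, and the study describes its results in general as means of independent experiments, with 3 for the RNA-seq, so p-values measure the spread between these. Entries that name no gene (reads on no gene, ambiguous, or aligned to several places, the first 2.73 to 8.14% of a library) were left out. Testing used edgeR 4.0.16 (R 4.3.3): filterByExpr, TMM scaling, one quasi-likelihood model of 4 groups, and the contrast of both responses. Intervals are at 95%, and with 30810614 to 31947656 counts per library counting error is small except for genes with few counts. Replicate numbers, known only from the labels, were checked for pairing: after removal of group means, NXP800 and DMSO libraries of one time and number correlated across genes with r of 0.159 to 0.329, against at most 0.0580 for different numbers, so the numbers pair the libraries. The model of 4 groups leaves this pairing out, so p-values, classes and list counts not marked as from the block ignore it. It called 4129 differences, against 6284 with the block, and genes called at 1 time only depend on this choice. On simulated counts for the difference, with 50 genes per size among 15730, edgeR recovered 20, 36, 38 and 37 genes changed 1.5-, 2-, 3- and 4-fold, with 7 other calls. A changed gene that failed the count filter counted as missed. The simulated libraries had no pairs, and far fewer genes were changed than the 25.8% called here. These recoveries therefore need not hold for the data.

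The members, gene lists, motifs and classes were chosen with earlier results of these data known. Genes to name were, where the mean log2 CPM was 2 or more, the 5 largest called differences per direction of the opposite, transient and late classes and the 3 largest of the weaker and stronger, the 3 called members with the largest difference in each direction of each of 25 lists, and genes the study names. Symbols that start with LOC were left out of the rankings per class, so a class may hold a larger difference under such a symbol. These rules give 169 genes, and the text names part of these, picked with their values known. Exon overlaps are from GENCODE models on either strand, and promoters from RefSeq (GRCh38.p14), the first listed per symbol. Alternatives were DESeq2 (1.42.0) size factors, library size only, no filter, at least 10 counts in every library, an adjusted p below 0.01, DESeq2's Wald test, the replicate number within time as a block, each library left out, a difference beyond 1 on the log2 scale, and classes by size.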

Additional observations from a re-analysis of the deposited data

Results flagged for a closer look

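Effects of the same treatment that differ between the times, by the test of the difference itself, were the subject of the comparison. The difference was called for 4129 genes, and for 175 genes the response went from up to down and for 163 from down to up. The largest of each are given among genes with a mean log2 CPM of 2 or more and a symbol not starting with LOC. The largest of the former were STC1 (log2 difference -2.87), TINAGL1 (-2.56), BIRC3 (-2.40), ADAMTS6 (-2.37) and FLG (-2.21). The largest of the latter were C1QTNF1 (2.38), NPTXR (1.98), ZDHHC14 (1.84), DDX17 (1.61) and PARM1 (1.42). The BIRC3 controls were at 10.7 CPM at 6 h and 1.56 CPM at 24 h on average, so its control level moved with time or library set, which cannot be told apart.

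Outside the gene counts, the share of reads aligned to several places was 3.32% ± 0.059 in NXP800 and 3.04% ± 0.071 in DMSO at 24 h (SD, n = 3 each), and every treated library lay above every control. At 6 h the shares were 1.90% ± 0.072 and 1.92% ± 0.030 (SD, n = 3 each), and the groups overlapped. These reads enter no gene count, and their part in the results was not tested.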

How the results depend on the processing

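With the replicate number as a block, 6284 genes were called in the difference, 2945 higher and 3339 lower, with 333 up then down, 381 down then up, 558 weaker up, 496 weaker down, 447 stronger up and 1036 stronger down. It kept 4127 of the 4129 calls of the unblocked fit, and DESeq2's Wald test shared 3862. At an adjusted p below 0.01 there were 2236 (946 higher, 1290 lower), with 84 up then down, 59 down then up, 295 transient up, 309 transient down, 373 late up, 124 weaker up, 102 weaker down, 84 stronger up and 308 stronger down. A difference beyond 1 left 1067 (501 higher, 566 lower), and classes by size gave 43 up then down, 49 down then up, 292 transient up, 315 transient down and 424 late up. Library size only gave 251 down then up and moved the median difference over all genes by 0.073. The other counts over all genes and per class stayed within 1.5 times. With 1 library left out, the total ranged from 3200 (without NXP800 6 h replicate 1) to 4154, higher calls from 1419 to 1862 and lower from 1781 to 2292. The classes ranged from 140 to 196 (up then down), 120 to 165 (down then up), 360 to 605 (transient up), 389 to 576 (transient down), 521 to 673 (late up), 563 to 693 (late down), 197 to 299 (weaker up), 165 to 239 (weaker down), 137 to 220 (stronger up) and 451 to 637 (stronger down). Of 157 named genes with a called difference, 120 kept direction and call under all alternatives. The uncalled difference of HSF1 turned negative with DESeq2 size factors (-0.0011), with the Wald test (-0.0028) and took both signs without 1 library (-0.060 to 0.070). That of DDIT3 turned positive with library size only (0.039), and without 1 library it ranged from -0.16 to 0.072 and that of EIF2AK1 from -0.038 to 0.064. The causes were not tested. The 24 h values of CXCL8 rest on as few as 7 counts in a library.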

Other observations

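Long noncoding RNAs were spread unevenly over the classes. They made up 13.4% of the tested genes, 12.7% of late genes that were up and 12.3% of genes that went from down to up. Among weaker genes that were up they made up 1.48%, among weaker genes that were down 2.30%, and among stronger genes that were down 1.98%, classes whose genes had a median log2 CPM of 4.68 to 5.50, against 3.38 for late genes that were up. The part of expression level in this was not tested.

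The ATF4 composite element, searched as TGATGNAAN on both strands with N for any base, lay in 1.86% of all tested promoters, in 4.05% (9 of 222) of weaker genes that were up, in 0.411% (2 of 487) of stronger genes that were down and in 0 of 122 promoters of genes that went from down to up. In the lists it lay in 6 of 28 promoters of ISR genes and in 6 of 16 of the cytosolic tRNA synthetases. A strict form, TGATGCAAT, lay in 0.155% of all tested promoters and in 1 of 222 weaker genes that were up. In the lists the strict form lay in 0 of 28 ISR promoters and 1 of 16 of the tRNA synthetases. No test was run on these shares. The ISR list holds ATF4 targets, so its share was partly set by the choice of genes.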
